A study of Mus musculus with 2 samples.

Results

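The 9 genes described here write, erase and read DNA methylation. They are the DNA methyltransferase genes Dnmt1, Dnmt3a and Dnmt3b, the TET dioxygenase genes Tet1, Tet2 and Tet3, and the methyl-CpG-binding domain genes Mbd1, Mbd2 and Mbd3. They were chosen by gene symbol, with earlier results of these data known. All 9 were found, 1 row each, among 23961 gene symbols. RNA was sequenced from haematopoietic stem cells sorted out of bone marrow of C57BL/6 mice, untreated and kept under a light/dark cycle, in 1 library from mice labelled Per2wt (wild type for Per2) and 1 library from mice labelled Per2def (Per2-deficient). The Per2 gene encodes a protein that holds back transcription in the daily clock of most cells. The sources used here do not give the Per2 allele, the number and age of the animals behind each library, the sort markers or the clock time of collection. The question addressed is how the RNA of these cells compares between the genotypes.

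DNA methylation in mammals is the addition of a methyl group to cytosine, mostly where a guanine follows (a CpG). DNMT3A and DNMT3B place new methyl groups, and DNMT1 copies the pattern onto the new strand after DNA replication. TET enzymes oxidise methylcytosine with 2-oxoglutarate and iron, after which base excision repair or replication returns an unmodified cytosine. MBD proteins carry a domain that in MBD1 and MBD2 binds methylated CpG, while mammalian MBD3 binds it poorly and acts chiefly as a subunit of the NuRD chromatin complex. In blood, loss of DNMT3A or TET2 lets stem cells expand at the cost of differentiation, and both genes are often mutated in clonal haematopoiesis and myeloid leukaemia.

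Levels are FPKM (fragments per kilobase of transcript, set relative to the mapped fragments of the library), so they can be compared between genes. Differences are log2(FPKM + 1) in Per2def minus that in Per2wt, which shrinks the change of low genes, and ratios are plain ratios of FPKM. Each genotype has 1 library, so no value has a replicate, an error or a p-value, and every difference is between these libraries and not between genotypes. In whole sorted populations a smaller share of cells with a transcript and less of it per cell cannot be told apart.

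The libraries differed outside the 9 genes. Of 11121 measured genes (1 FPKM or more in either library), 62% were higher in Per2def, with a median difference of 0.05. Among 3232 low genes the most common FPKM ratio was that of a Per2def library 1.24 times as deep, but the files give no read totals and absolute depth is unknown. Per2 itself had 1.96 FPKM in the library labelled Per2wt and 6.16 in that labelled Per2def, against the direction of its label, and without the allele this neither bears out nor contradicts the labels. Of 15 stem cell markers, which summed to 229 FPKM in Per2wt and 216 in Per2def, 12 were measured, and Slamf1, Fgd5 and Hoxb5 were under 1 FPKM. Cd34 alone was at 90.5 and 83.9 FPKM, and of the 12 measured 5 were higher in Per2def and 7 lower. The 14 neutrophil markers summed to 534 FPKM in Per2wt and 1026 in Per2def. The 14 erythroid markers summed to 767 and 758 FPKM, but 9 were higher and 5 lower, with the globin gene Hba-a1 at 193 and 115 FPKM and the carbonic anhydrase gene Car1 at 177 and 294 FPKM. The 8 megakaryocyte markers summed to 45.8 and 35.9 FPKM, most of the gap being Thbs1 at 8.70 and 0.996 FPKM. Of the 6 measured, 4 were lower in Per2def and 2 higher, and their median difference was −0.23. Itga2b was at 12.7 and 12.8 FPKM. The 12 T and B lymphocyte markers summed to 9.83 and 13.3 FPKM, with 8 of them under 1 FPKM in both libraries. Of the 4 measured, 3 were higher in Per2def, and only the most abundant, Cd79b, was lower, at 6.00 and 5.29 FPKM. Not 1 of these markers was listed at 0 in both libraries. The part of these cell types in the differences below was not tested.

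None of the 9 genes was 1.5-fold apart between the libraries in either direction, where 4.31% of the measured genes were. At 2-fold the count was again 0 of 9, against 2.25% of measured genes. With 9 genes, counts of 0 lie close to these background shares. A total of 8 of the 9 were higher in Per2def, where 62% of measured genes were, and Mbd3 was lower. When the libraries were scaled by the median of ratios, or to the housekeeping genes, Dnmt3a and Tet3 also became lower, leaving 6 of 9 higher, and scaling to the total without small and predicted RNAs left 7 of 9, with Dnmt3a lower. The median difference of the 9 was 0.17, beside 0.05 for all measured genes. The order of levels was the same in both libraries and ran from Dnmt1 through Mbd3, Mbd2, Mbd1, Dnmt3b, Tet3, Dnmt3a and Tet2 to Tet1.

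**Figure D1:**
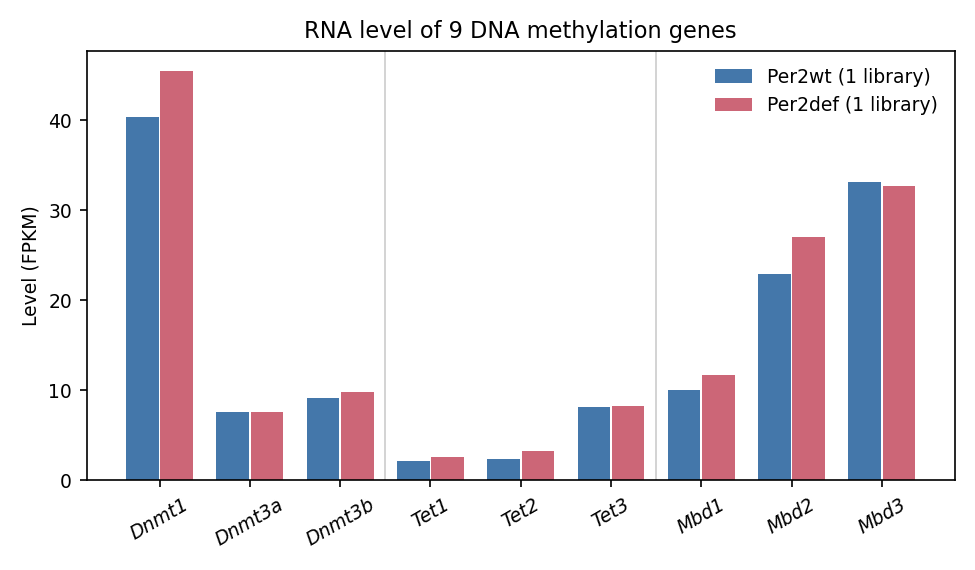
RNA level in FPKM (vertical axis, linear) of the 9 genes in the Per2wt and Per2def libraries, 1 bar per library and no error bars because each genotype has 1 library. Dnmt1 is the most abundant at 40.4 and 45.5 FPKM, and Tet1 the least abundant at 2.14 and 2.55 FPKM.

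Several neighbours in that order were closer to each other than the widest ratio between libraries, the 1.34 of Tet2. Tet3 stood 1.08 times above Dnmt3a in Per2wt and 1.09 times in Per2def. Dnmt3b stood 1.12 and 1.18 times above Tet3, Mbd1 1.10 and 1.20 times above Dnmt3b, and Tet2 1.13 and 1.27 times above Tet1. These neighbouring pairs are therefore not separated by more than the widest ratio of a member between the libraries, although Mbd1 stood 1.42 times above Tet3 and 1.54 times above Dnmt3a in Per2def. At the top of the order the steps passed that ratio in 1 library each, with Dnmt1 1.22 and 1.39 times above Mbd3 and Mbd3 1.44 and 1.21 times above Mbd2. The steps from Mbd2 down to Mbd1 (2.28 and 2.30 times) and from Dnmt3a down to Tet2 (3.13 and 2.34 times) were wider in both libraries.

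The maintenance enzyme gene Dnmt1 was among the more abundant RNAs of these cells. It lies on the minus strand of chromosome 9 from 20907209 to 20959888 (GRCm38, ENSMUSG00000004099.16). Its level was 40.4 FPKM in Per2wt and 45.5 in Per2def, above 92.7% and 93.3% of the measured genes. The difference was 0.17 (ratio 1.12), and 24.6% of the 1281 genes with a mean of 20 to 100 FPKM were at least as far apart. That difference lies inside the middle 95% of those genes, which ran from −0.33 to 0.31. Dnmt1 made up 70.7% of the summed FPKM of the 3 methyltransferase genes in Per2wt and 72.3% in Per2def. A row for the small RNA Mir7081, which lies in an intron of Dnmt1 on the same strand, was listed at 102 FPKM in Per2wt and 494 in Per2def. A row this short reaches a high FPKM from few reads, and it touches no annotated exon of Dnmt1.

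The genes of the enzymes that place new methylation differed less. Dnmt3a (chromosome 12, plus strand, 3806007 to 3914443, ENSMUSG00000020661.15) was at 7.60 FPKM in Per2wt and 7.62 in Per2def, a ratio of 1.00. Nearly all genes of like level, 97.9% of the 4352 with a mean of 5 to 20 FPKM, were at least as far apart as that. Dnmt3b (chromosome 2, plus strand, 153649450 to 153687730, ENSMUSG00000027478.15) was at 9.13 and 9.79 FPKM, a difference of 0.09 that 57.8% of those genes reached. Dnmt3b RNA thus stood above Dnmt3a RNA in both libraries, by 1.20 times in Per2wt and 1.28 times in Per2def. Both steps are smaller than the widest ratio of a member between the libraries, the 1.34 of Tet2. Dnmt3aos, transcribed from the opposite strand of Dnmt3a, was at 0.147 and 0.237 FPKM, far below Dnmt3a itself. Dnmt3l, which encodes a partner of both enzymes without activity of its own, was listed at 0 in Per2wt and at 0.0383 FPKM in Per2def.

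The TET genes included the widest difference of the 9. Tet2 (chromosome 3, minus strand, 133463679 to 133545139, ENSMUSG00000040943.12) was at 2.43 FPKM in Per2wt and 3.25 in Per2def. This is a ratio of 1.34 and a difference of 0.31, and with a pseudocount of 0.1 FPKM the difference was 0.41. Of the 4037 genes with a mean of 1 to 5 FPKM, 13.5% were at least as far apart in either direction and 9.41% were as high in Per2def, and their middle 95% ran from −0.39 to 0.52. Tet1 (chromosome 10, minus strand, 62804570 to 62908996, ENSMUSG00000047146.17) was at 2.14 and 2.55 FPKM, a difference of 0.18 that 37.0% of those genes reached. Low genes such as these carry more counting error than Dnmt1, and its size cannot be set without read totals. Gm42567, an antisense gene whose span touches an exon of Tet2, had no row, so its level is unknown.

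Tet3 was the most abundant TET gene and nearly equal between the libraries. The gene (chromosome 6, minus strand, 83362373 to 83459084, ENSMUSG00000034832.15) was at 8.18 FPKM in Per2wt and 8.28 in Per2def, a difference of 0.02. Its share of the summed TET FPKM was 64.2% in Per2wt and 58.8% in Per2def, while that of Tet2 was 19.0% and 23.1% and that of Tet1 16.8% and 18.1%. Expressed as a ratio within each library, which no scaling of a library can move, Tet2 to Tet3 was 0.296 in Per2wt and 0.393 in Per2def. The row of Mir6374, a small RNA in an intron of Tet3 on the same strand, was listed at 17.7 FPKM in Per2wt and at 0 in Per2def.

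The readers Mbd1 and Mbd2 were higher in Per2def and Mbd3 was not. Mbd2 (chromosome 18, plus strand, 70568189 to 70626131, ENSMUSG00000024513.16) was at 22.96 FPKM in Per2wt and 27.0 in Per2def, a difference of 0.23 that 12.1% of genes of like level reached in either direction and 5.62% reached upward. Mbd1, which encodes a repressor that also holds CXXC zinc fingers (chromosome 18, plus strand, 74267605 to 74282732, ENSMUSG00000024561.10), was at 10.1 and 11.8 FPKM, a difference of 0.20 that 21.9% of genes of like level reached. Mbd3 (chromosome 10, minus strand, 80392539 to 80399550, ENSMUSG00000035478.14) was at 33.1 and 32.7 FPKM, a difference of −0.02. MBD2 and MBD3 take the same place in NuRD and do not share 1 complex. Mbd2 RNA stood at 0.693 of Mbd3 RNA in Per2wt and at 0.826 in Per2def, and Mbd3 made up 50.1% and 45.8% of the summed MBD FPKM.

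**Figure D2:**
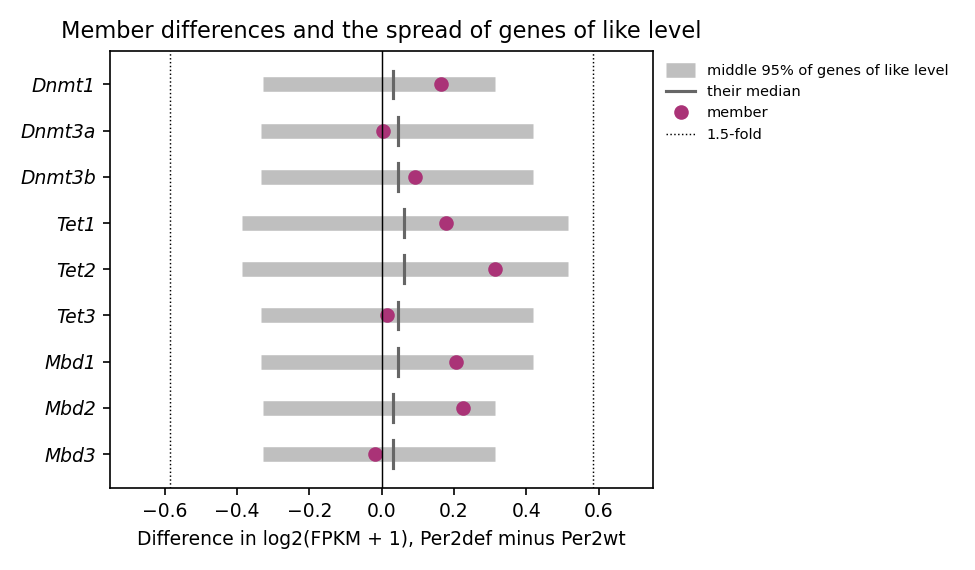
Difference in log2(FPKM + 1), Per2def minus Per2wt (horizontal axis), of each of the 9 genes (points), over the middle 95% (grey bars) and the median (dark ticks) of measured genes in the same band of mean FPKM, small and predicted RNAs left out. All 9 points lie inside their bars, Tet2 at 0.31 the farthest to the right and Mbd3 at −0.02 the farthest to the left, and none reaches 1.5-fold (dotted lines).

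Summed by family, the 3 groups differed by nearly equal ratios. The DNMT genes summed to 57.1 FPKM in Per2wt and 62.9 in Per2def, a ratio of 1.10. The TET genes summed to 12.8 and 14.1 FPKM (ratio 1.10) and the MBD genes to 66.2 and 71.5 FPKM (ratio 1.08). The ratio of summed DNMT to summed TET RNA was 4.48 in Per2wt and 4.46 in Per2def. Within families the shares differed by more, with less Tet3 and more Tet2 in the TET sum of Per2def and less Mbd3 and more Mbd2 in its MBD sum.

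**Figure D3:**
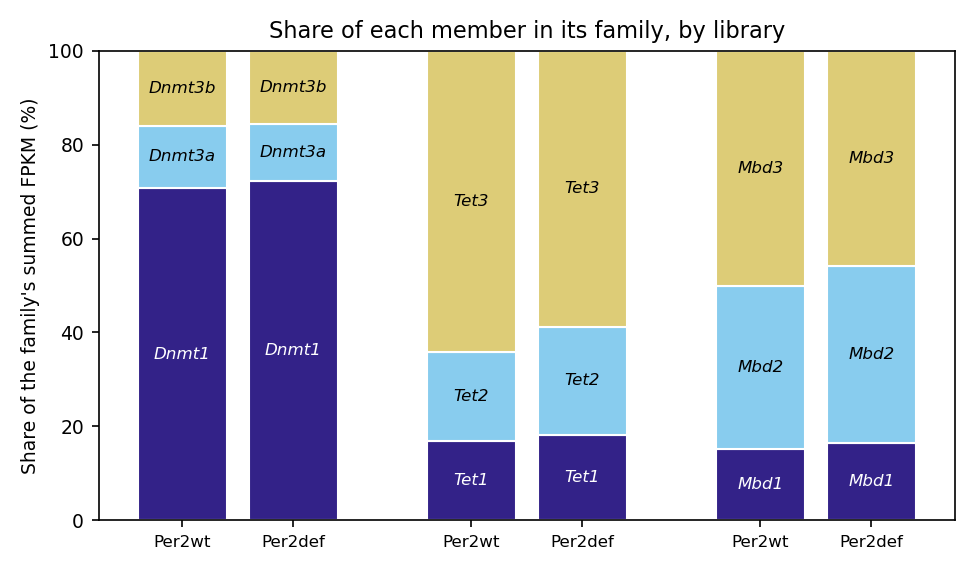
Share of each gene in the summed FPKM of its family (vertical axis, percent), for DNMT, TET and MBD genes in the Per2wt and Per2def libraries. The Tet3 share is 64.2% in Per2wt and 58.8% in Per2def, the Mbd3 share 50.1% and 45.8%, and the Dnmt1 share 70.7% and 72.3%.

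The promoters of the 9 genes were examined because the clock activators CLOCK and BMAL1, which PER2 represses, bind the E-box CACGTG. RefSeq promoter windows (GRCm38.p6, 250 bases before to 50 after a start site) were found for 7 of the 9 genes, 11 windows in all, and Mbd1 and Mbd2 had none. The starts for Tet1 (62887324), Tet2 (133544390) and Tet3 (83441678) lie inside the gene spans given above, downstream of the first annotated base. No window at the first annotated base of these TET genes was among the 11. A search of both strands for CACGTG, which reads the same on each, found it in 1 of the 11 windows (9.09%), beside 7.15% of all 32851 windows. The match lies 80 bases before an internal start site of Dnmt3a, the gene with the smallest difference. It is shown with its flanks to place that 1 match, as the plus strand of chr12:3891647-3891686 with the E-box in capitals.

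Dnmt3a: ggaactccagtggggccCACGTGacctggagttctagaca

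CpG content was higher in most of these windows than in promoters at large. The median was 22 CpG in 300 bases against 7 for all windows, and the members ranged from 2 at the most upstream Dnmt1 start to 57 at Tet2. The Tet2 window held more CpG than 99.8% of all windows, and those at the upstream Dnmt3a starts held 46 and 47. The 250 bases before the RefSeq Tet2 start are printed because Tet2 differed most between the libraries and its window has the most CpG. They are the minus strand of chr3:133544391-133544640, inside the annotated span of Tet2, with each CpG in capitals. The stretch holds 51 CpG and repeats itself, since 77.9% of its bases equal the base 42 positions on, against a median of 35.4% over the offsets compared. These data measured RNA and not methylation, so whether these CpG are methylated was not measured.

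Tet2: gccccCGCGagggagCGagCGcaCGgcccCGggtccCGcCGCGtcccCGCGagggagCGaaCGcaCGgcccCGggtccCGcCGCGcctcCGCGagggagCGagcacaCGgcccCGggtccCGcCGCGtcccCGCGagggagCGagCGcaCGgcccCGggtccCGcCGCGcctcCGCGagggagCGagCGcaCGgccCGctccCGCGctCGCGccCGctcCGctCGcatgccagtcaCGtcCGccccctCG

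Genes whose products work with the methyltransferases were split. Of 10 measured genes 3 were higher in Per2def, beside 62% of all measured genes, 7 were lower and none was 1.5-fold apart. The median was −0.01, and the split was the same with the median of ratios or the housekeeping genes as the scale. The 3 higher genes were Hells, a chromatin remodeller needed for methylation of repeats, at 10.8 FPKM in Per2wt and 13.1 in Per2def (0.25), Usp7, a deubiquitinase that stabilises DNMT1, at 17.7 and 19.4 FPKM (0.13), and Uhrf1, which brings DNMT1 to newly copied DNA, at 35.2 and 38.2 FPKM (0.11). The ratio of Dnmt1 to Uhrf1 RNA was 1.15 in Per2wt and 1.19 in Per2def. Pcna, the replication clamp and the most abundant of the list, was at 148.0 and 146.7 FPKM.

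Dnmt1 and Uhrf1 are expressed with DNA replication. Most genes of a list of S phase genes, Uhrf1 among them, were higher in Per2def. Of 28 S phase genes, a list that shares Pcna, Uhrf1 and Hells with the partners, 23 were higher and 5, Pcna included, lower. Of all measured genes 62% were higher, and the median of the list was 0.12. With the median of ratios as the scale 22 were higher and the median was 0.07. Dnmt1 RNA stood at 0.942 of that of Mcm2, a replicative helicase subunit gene of the list, in Per2wt and at 0.954 in Per2def. Differences over the list ran from −0.12 to 0.46, so the ratio to some other S phase genes differed more between the libraries. The replication factor genes Gins1 (0.46) and Cdt1 (0.32) were the farthest apart. Among 20 genes that peak in G2 and mitosis, 6 were higher in Per2def, beside 62% of all measured genes, and 14 lower. Their median of −0.09 became −0.14 with the median of ratios as the scale. The widest were Bub1, a spindle checkpoint kinase gene (−0.30), and Kif11, which encodes a spindle motor (−0.26). The part of cell cycle phase in the Dnmt1 difference was not tested.

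Other genes that encode readers of methylated CpG or proteins with an MBD-type domain were mostly a little higher in Per2def. Of 11 measured, 10 were higher, beside 62% of all measured genes, and none 1.5-fold apart. The median was 0.15, or 0.08 with a floor of 5 FPKM, and 8 were higher with the median of ratios as the scale. Mbd5, a relative of the MBD genes whose protein does not bind methylated DNA, was at 1.41 FPKM in Per2wt and 1.85 in Per2def (0.24), the zinc finger reader gene Zbtb4 at 1.06 and 1.38 FPKM (0.21), and Baz2b, a bromodomain gene with an MBD-like fold, at 6.08 and 7.08 FPKM (0.19). Mbd4, a glycosylase that repairs mismatches at CpG, was at 4.03 and 4.68 FPKM (0.17). Mbd6, the most abundant, was at 13.6 and 14.0 FPKM (0.04).

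The NuRD complex, in which MBD2 or MBD3 sits with a remodeller, deacetylases and scaffold subunits, held differences in both directions. Of 12 subunit genes 9 were higher and 3 lower, beside 62% of all measured genes higher. The median was 0.06, near the 0.05 of all genes. With the median of ratios as the scale the split was 6 and 6, beside 51.0% of all measured genes higher. No subunit gene was 1.5-fold apart, and the widest difference was in Gatad2b, at 9.64 FPKM in Per2wt and 12.9 in Per2def (0.38). Its paralogue Gatad2a was at 12.8 and 14.8 FPKM (0.20). Both encode the p66 subunits that link MBD2 or MBD3 to the remodeller. Mta3, a scaffold subunit gene, was the lowest, at 17.7 and 14.6 FPKM (−0.26), while its paralogue Mta2 was at 34.3 and 36.2 FPKM. The remodeller gene Chd4, the most abundant, was at 57.5 and 59.5 FPKM (0.05).

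Genes that supply or adjust the TET reaction differed little. Of 12 measured, 8 were higher in Per2def, beside 62% of all measured genes, and none was 1.5-fold apart. The median was 0.06, near the 0.05 of all genes. Ogt, whose glycosyltransferase binds TET proteins, was at 14.8 FPKM in Per2wt and 17.1 in Per2def (0.20), and D2hgdh, which clears the TET inhibitor 2-hydroxyglutarate, at 5.17 and 5.79 FPKM (0.14). Idh3g, a subunit of the mitochondrial enzyme that makes 2-oxoglutarate, was at 47.2 and 51.6 FPKM (0.13). Idh1 was at 3.66 and 3.76 FPKM and Idh2 at 49.4 and 47.5 FPKM. Cxxc4, whose protein binds TET2, was at 0.00804 and 0.0194 FPKM.

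Base excision repair genes that follow TET oxidation were split. The median of the 14 measured was −0.03, which turned to 0.02 with a floor of 5 FPKM. In Per2def 6 were higher, beside 62% of all measured genes, and 8 lower. Both counts were the same with the median of ratios or the housekeeping genes as the scale. Tdg, the glycosylase that removes oxidised methylcytosine, was at 4.05 FPKM in Per2wt and 4.34 in Per2def (0.08). The stress-induced Gadd45g was at 0.795 and 1.56 FPKM (0.51), the widest difference of the list and still short of 1.5-fold on this scale, while its relative Gadd45a was at 7.56 and 6.01 FPKM (−0.29). The glycosylase gene Neil3 was lower by a difference of −0.19. Parp1, a sensor of strand breaks and the most abundant, was at 37.6 and 39.3 FPKM.

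Genes of folate and methionine metabolism, which make the methyl donor S-adenosylmethionine, were mostly higher in Per2def. Of 15 measured, 12 were higher, beside 62% of all measured genes, and 3 lower. The median was 0.14, or 0.09 with the median of ratios as the scale, where 11 were higher. The mitochondrial folate enzyme genes Mthfd1l, at 14.1 FPKM in Per2wt and 18.6 in Per2def (0.37), and Mthfd2, at 4.36 and 5.94 FPKM (0.37), were the farthest apart, and none of the list reached 1.5-fold. Ahcy, which removes the methyltransferase inhibitor S-adenosylhomocysteine, was the most abundant, at 33.7 and 39.4 FPKM (0.22). Mat2a, the S-adenosylmethionine synthetase gene of blood cells, was nearly equal at 32.0 and 32.3 FPKM (0.01), and its liver counterpart Mat1a was listed at 0 in both.

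**Figure D4:**
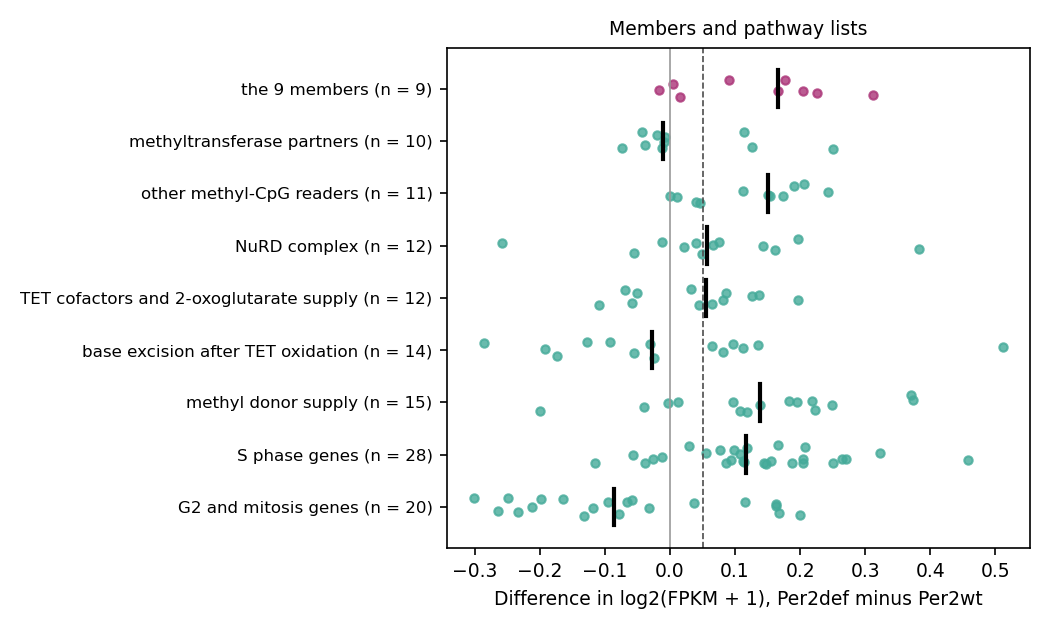
Difference in log2(FPKM + 1), Per2def minus Per2wt (horizontal axis), of the 9 members and of the measured genes of 8 lists (points, spread vertically for visibility), with each list's median (black bars) and the median of all measured genes (dashed line, 0.05). The 9 members have a median of 0.17, methyl donor genes 0.14 and methyltransferase partners −0.01, and the points of all lists overlap.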

How the data were processed

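The authors deposited FPKM per gene, 1 file per library, made with Cufflinks per the submitters' processing notes. The notes also name CASAVA 1.8, TopHat, Bowtie2 and the builds GRCm38 and mm10. The sources used here give no other version, annotation, read filter or strand setting, so reads of overlapping genes cannot be told apart. Libraries came from poly(A) RNA, per the labels' protocols.

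Each file held 24487 rows. The 9 rows with a Cufflinks flag for too much data and 27 rows whose symbols had become dates were left out, and rows sharing a symbol were summed. Counts cover genes that reach 1 FPKM in either library. Bands of like level leave out small and predicted RNAs, recognised by symbol. Positions are from GENCODE M21 (GRCm38). Python 3.11.15, numpy 2.4.6 and pandas 2.3.3 were used, and the procedures were tested on simulated data.

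Named genes are the members, the 3 widest differences and the most abundant gene of each pathway list, any gene past 1.5-fold in those lists, Per2, and the 2 widest of the cell cycle lists. Slamf1, Fgd5, Hoxb5, Cd34, Hba-a1, Car1, Itga2b, Cd79b, Dnmt3l, Mbd4, Mta2, Idh1, Idh2, Cxxc4, Tdg, Mat1a, Mat2a, Mcm2 and the overlapping RNAs were added for their roles after their values were seen. Some genes of the lists are not reported here by name. The members and lists were chosen with earlier results of these data known. Alternatives were 4 scalings, other pseudocounts and filters, other folds and the highest row per symbol.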

Additional observations from a re-analysis of the deposited data

How the results depend on the processing

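Alternatives gave 152 values for the 9 genes, the DNMT, TET and MBD sums and the lists. Of these, 149 moved by less than 1 robust SD of single-gene differences or, for the count of members past the fold, did not change. That SD, 0.16 for medians and sums, is wider than most list medians. A small median could therefore change sign and still count as unmoved. With 1 row per member, the highest row per symbol could not move the 9 genes or their sums. The 3 other values were all the median of the T and B lymphocyte markers, with 4 measured genes. Reported as 0.57, it was −0.15 with a 5 FPKM floor, 0.13 with no filter on low values and 0.94 with a 0.1 FPKM pseudocount. The first rests on Cd79b alone, since fewer genes entered. The count of members past the fold was 0 in every setting run, lower and higher folds included, but it is read on the scale of log2(FPKM + 1). By the plain ratio of 1.34 Tet2 passes the lowest fold tried. Across scalings and pseudocounts the Tet2 difference ran from 0.27 to 0.41, Mbd2 from 0.17 to 0.23 and Dnmt1 from 0.11 to 0.17, while Dnmt3a (−0.04 to 0.00) and Tet3 (−0.03 to 0.02) took both signs. With a floor of 5 FPKM the median of the base excision genes turned from −0.03 to 0.02. No scaling moved the median of all genes by over 0.1. No paired analysis was possible because each genotype has 1 library, and for the same reason no replicate could be left out. Absolute depth is unknown, so no counting interval was set.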
